A study of Mus musculus with 18 samples.

Results

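The 10 genes described here mark 3 somatic cell types of the testis and were read as a measure of somatic RNA in a fraction of round spermatids (RS). Sox9, Wt1, Amh and Clu stand for Sertoli cells, Cd68, Csf1r, Adgre1 and C1qa for macrophages, and Pecam1 and Cdh5 for endothelial cells. They were listed by name, with no measured value in the rule, and they are 10 of the 54232 genes counted. RNA-seq libraries were made from total RNA, with no poly(A) selection, of RS isolated from the testes of mice aged 75 to 85 days. There were 6 wild-type (WT) libraries, 6 GRTH knock-out (KO) libraries and 6 GRTH knock-in (KI) libraries. GRTH is the RNA helicase encoded by Ddx25 and is made in germ cells and Leydig cells of the testis. The KO mice lack the protein, and the KI mice carry a human form of the GRTH gene with a point mutation, so that the helicase lacks its phosphorylated form. Spermatids of both lines stop before they elongate, and neither allele is described as limited to a cell type. The preparation included a collagenase step meant to remove Leydig cells, a trypsin digest of the tubules, filtering and settling through an albumin gradient, and the fractions were examined with a nuclear stain. The strain, the number of animals behind a library and whether libraries came from separate animals are not given in the sources used here, so the p-values below measure the spread between these libraries, which may be technical.

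Sertoli cells are the supporting epithelium of the seminiferous tubule, and every germ cell develops in contact with them. Macrophages lie between the tubules and on their outer wall, while endothelial cells line the vessels of the interstitium. An RNA-seq library of a germ cell fraction holds RNA of such cells when some of them, or their fragments, settle with the germ cells. A marker read in bulk RNA has a further limit, since fewer cells of a type and less RNA per cell cannot be told apart.

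Each library held 18766971 to 26776555 counts on genes. The unit of level used below is the normalized CPM, a count scaled for the size of its library, and 3 counts in a library, taken as the floor, came to 0.112 to 0.160 CPM of the library total. Ddx25 itself was at 567 ± 24.7 normalized CPM in WT and 70.0 ± 14.8 in KO (SD, n = 6 each). The counts are on the mouse gene, so they do not measure the human allele of the KI mice. Mouse Ddx25 lay between 0.0456 and 0.519 normalized CPM in 5 KI libraries, but at 56.9 in the library labelled KI 4, which is inside the KO range of 47.7 to 90.9. That library goes against its label, and KI counts of called genes that change without it are given both ways. It also lay closest to KO 2 of all pairs of libraries, with a pair index of 1.59, where 1 stands for counting noise alone. A further 6 pairs of libraries within a genotype had an index of 2.05 to 3.24 against 4.73 for the next pair. No pair was as close as counting noise, but an index above 1 cannot show that libraries came from separate animals. All 18 libraries were kept in the groups of their labels, and the calls were also computed with these 6 pairs summed.

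All 10 genes passed the filter on low counts, together with 21058 genes in all. Their levels were low throughout. The 10 genes together took 0.00144% to 0.00242% of a library's counts, and their summed level ranged from 14.2 to 24.2 normalized CPM. Per kilobase of exon, Clu stood highest at 2.23 ± 0.788 normalized CPM (SD over 18 libraries). Cd68 followed at 0.804 ± 0.301, C1qa at 0.737 ± 0.355 and Adgre1 at 0.729 ± 0.152 on the same scale. Csf1r was at 0.421 ± 0.177 normalized CPM per kilobase, Sox9 at 0.307 ± 0.117, Wt1 at 0.265 ± 0.0894 and Amh at 0.245 ± 0.113. The endothelial genes were lowest, with Cdh5 at 0.194 ± 0.0573 and Pecam1 at 0.114 ± 0.0370 normalized CPM per kilobase. Between neighbours in this order, the gap was larger than the larger SD for Clu over Cd68, for Adgre1 over Csf1r and for Cdh5 over Pecam1, and it was not for the other 6 pairs of neighbours. Actl7b, an actin-related protein of round spermatids, stood at 513 ± 107 normalized CPM per kilobase in the same libraries, and Acr, which encodes the acrosomal protease acrosin, at 121 ± 19.1. Both stood above each of the 10 somatic markers per kilobase.

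**Figure D1:**
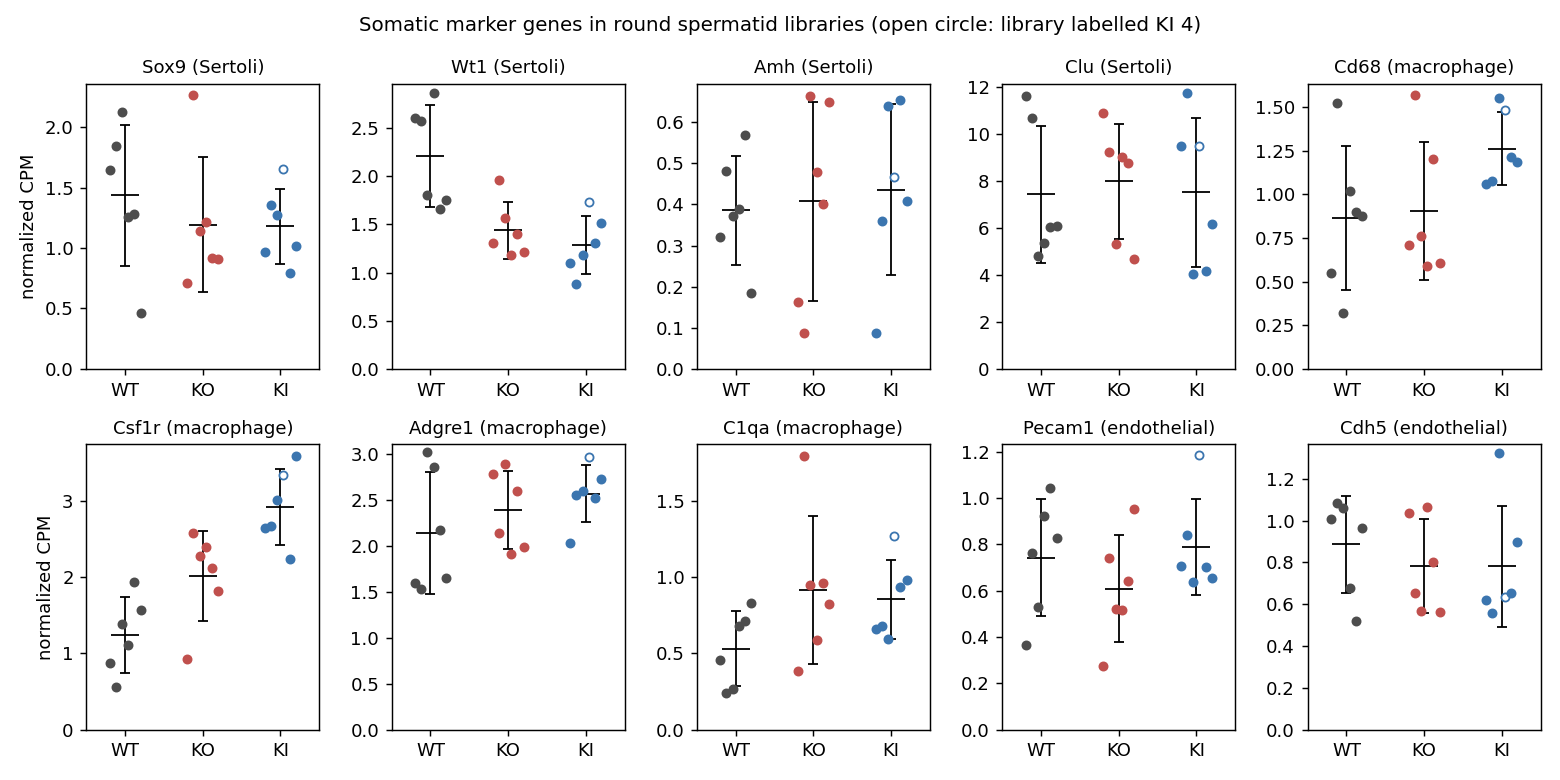
Normalized CPM (y axes, each starting at 0) of each of the 10 somatic marker genes in every library, by genotype; points are libraries, the open circle is the library labelled KI 4, and the black line and bar are the mean and SD of 6 libraries. The 6 KI libraries lay above the 6 WT libraries for Csf1r, and in the other 9 panels the genotypes overlap. In the Wt1 panel the KI and WT libraries overlap through the library labelled KI 4 alone.

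Of the 10 genes, 1 was called higher and 1 lower in KO against WT, and the same counts held in KI against WT (edgeR's quasi-likelihood test, adjusted p under 0.1 over 21058 genes). Csf1r rose and Wt1 fell in both. Over all genes tested, 16.4% were called higher and 13.5% lower in KO against WT, and 16.1% and 15.4% in KI against WT. The members' counts are near these shares. The median log2 fold change of the 10 genes was 0.07 in KO and 0.12 in KI against WT, beside 0.03 and 0.05 over all genes tested. When a change beyond 1 log2 unit was required, 0 of the 10 genes were called in KO and 0 in KI against WT (edgeR's glmTreat), while 1.73% and 1.95% of all genes were. At an unadjusted p under 0.05 that test also gave 0 in both comparisons, and DESeq2 with the same threshold gave 0. Both comparisons use the same 6 WT libraries, so they are not independent of each other.

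**Figure D2:**
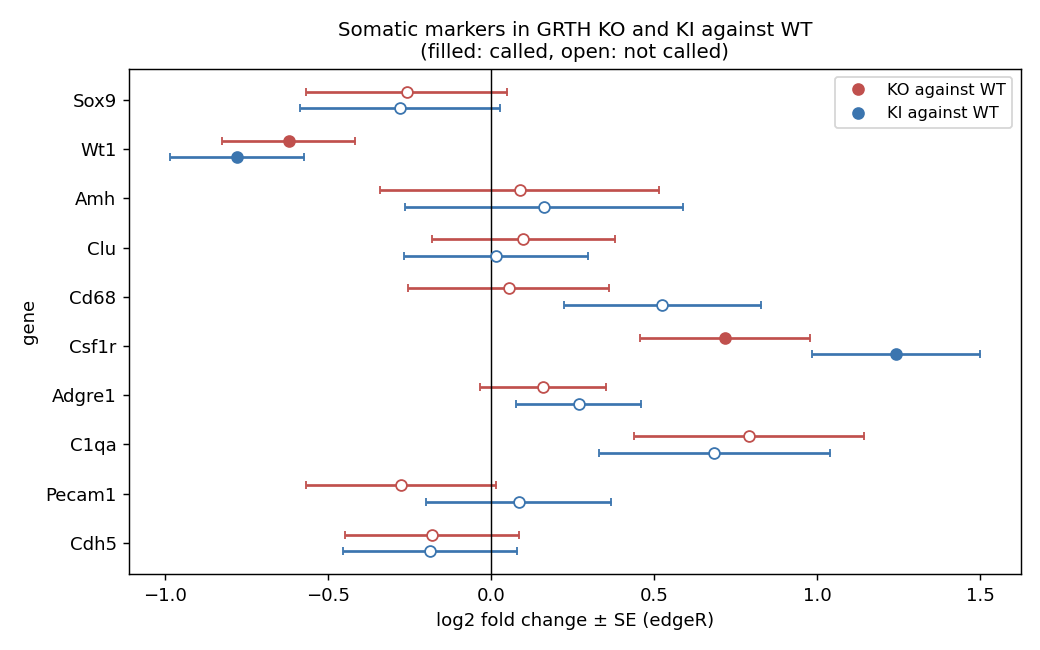
Log2 fold change (x axis) with its SE for each of the 10 genes (y axis) in KO against WT (red) and KI against WT (blue), from edgeR; filled points were called at an adjusted p under 0.1 and open points were not. Wt1 lies below 0 and Csf1r above 0 with filled points in both comparisons, and the other 8 genes have open points.

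Among the Sertoli genes, Wt1 fell in KO and in KI while Sox9, Amh and Clu were not called. Wt1 encodes a zinc-finger transcription factor that Sertoli cells need to keep their identity (chr2:105126529-105173616 in GRCm38, + strand). In WT its normalized CPM had a lowest value of 1.66, a median of 2.19 and a highest value of 2.86. In KO the lowest, median and highest values were 1.18, 1.35 and 1.96, and in KI they were 0.878, 1.25 and 1.74. The KO and KI libraries sat low, but the highest of each, KO 2 and the library labelled KI 4, lay within the WT range. In KO the next highest was KO 3 at 1.57. Without the library labelled KI 4 the KI libraries reached at most 1.51 normalized CPM, below the lowest WT library. The log2 fold change was -0.62 ± 0.20 (SE) in KO against WT (adjusted p = 0.0311) and -0.78 ± 0.21 in KI against WT (adjusted p = 0.00731), both from edgeR. The KI call was also made in each of 29 alternative fits, the one without the library labelled KI 4 included. The adjusted p of these fits ran from 0.00326 to 0.0979, the highest just under the threshold of 0.1. The KO call was made in 28 of 29 and was not made when the close pairs were summed and the library labelled KI 4 was left out, where the log2 fold change was -0.60 ± 0.25 and the adjusted p 0.149. Wt1os, an antisense transcript that starts 18 bases from Wt1 on the opposite strand and was singled out after its values were seen, also fell, by 0.97 in KO (adjusted p = 0.0492) and by 1.41 in KI (adjusted p = 0.00621) on the log2 scale. Its mean level was 0.715 normalized CPM in WT, against 0.360 in KO and 0.263 in KI. Counts of Wt1os were few, 9 to 21 in WT libraries, 3 to 15 in KO and 2 to 11 in KI. In 1 KO library and 2 KI libraries Wt1os was at or under the floor of 3 counts.

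Sox9, the transcription factor that directs Sertoli cell fate, had WT libraries between 0.460 and 2.12 normalized CPM with a median of 1.46. Its KO libraries lay between 0.709 and 2.27 with a median of 1.03, and its KI libraries between 0.795 and 1.65 with a median of 1.15. The groups overlapped over most of their range. Its log2 fold change was -0.26 ± 0.31 in KO (adjusted p = 0.615) and -0.28 ± 0.31 in KI (adjusted p = 0.566, edgeR), so a change was not detectable at this spread.

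Amh encodes the hormone by which fetal and juvenile Sertoli cells make the Müllerian ducts regress, and adult Sertoli cells make little of it. It had the fewest counts of the 10 genes, 4 to 12 in WT libraries, 2 to 15 in KO and 2 to 14 in KI. In 2 KO libraries and 1 KI library it was at or under the floor of 3 counts. Its log2 fold changes of 0.09 ± 0.43 in KO and 0.16 ± 0.43 in KI were well inside their SE (edgeR, adjusted p = 0.920 and 0.833). Sf3a2, a splicing factor gene, ends 318 bases before Amh on the same strand in GENCODE M21 and was at 46.6 ± 4.86 normalized CPM in WT, against 0.386 ± 0.133 for Amh. Whether reads that run past the end of Sf3a2 add to the Amh counts was not tested.

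Clu encodes clusterin, a secreted chaperone that Sertoli cells make in quantity. It gave most of the Sertoli signal, 69.7% of the summed level of the 4 Sertoli genes. In WT its lowest, median and highest values were 4.83, 6.07 and 11.6 normalized CPM. They were 4.68, 8.91 and 10.9 in KO, and 4.06, 7.82 and 11.8 in KI. Each genotype held low and high libraries, and the ranges nearly coincided. Clu had a log2 fold change of 0.10 ± 0.28 in KO (adjusted p = 0.855) and 0.01 ± 0.28 in KI (adjusted p = 0.981, edgeR).

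The spread of Clu within a genotype was 24.3 times that of counting noise, measured as a variance, while for the other 9 genes the factor was 1.68 to 4.41. At a given relative spread this factor grows with the mean count, which was 173 for Clu and 9.23 to 53.3 for the others. As a percentage of the mean, the SD within a genotype was 37.5% for Clu, inside the 20.7% to 48.7% of the other 9 genes. The spread of Clu followed the pairs of close libraries. Within the 6 close pairs the mean absolute log2 difference of Clu was 0.11, and it was 0.74 over the other 39 pairs of libraries of the same genotype. The Clu counts of the WT pairs were 254 and 266, 91 and 111, and 128 and 132. They were 246 and 219 in KO 4 and KO 5, 215 and 295 in KI 1 and KI 2, which was the widest of the 6 pairs, and 89 in both KI 3 and KI 5. Csf1r differed by 0.31 within close pairs and by 0.59 over the others. Sox9 (0.66 and 0.67) and Cdh5 (0.54 and 0.50) did not show such a gap, and Cd68 differed more within close pairs (0.77 and 0.61). Wt1 (0.25 and 0.41), Amh (0.77 and 1.11) and Adgre1 (0.23 and 0.37) differed less within close pairs. So did C1qa (0.65 and 0.79) and Pecam1 (0.48 and 0.61). The pairs were defined from the counts of all genes, these included, and the labels do not name them.

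Among the macrophage genes, Csf1r rose in both lines and the other 3 were not called. Csf1r encodes the receptor through which CSF1 keeps macrophages alive (chr18:61105572-61132149, + strand). Its normalized CPM in WT had a lowest value of 0.562, a median of 1.25 and a highest value of 1.94. In KO these values were 0.927, 2.20 and 2.58, and in KI they were 2.24, 2.84 and 3.59. The 6 KI libraries lay above the 6 WT libraries, whereas KO 1 and KO 6 lay below the highest WT library. The KI and WT libraries did not overlap, in either direction, for 13.9% of the genes tested, and the KO and WT libraries for 13.1%. The log2 fold change was 1.24 ± 0.26 in KI against WT (adjusted p = 0.000972) and 0.72 ± 0.26 in KO against WT (adjusted p = 0.0491), both from edgeR.

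The KI call for Csf1r was made in each of 29 alternative fits, with an adjusted p of 1.48e-05 to 0.0345 and a log2 fold change of 1.08 to 1.42. Without the library labelled KI 4 the KI libraries ran from 2.24 to 3.59 normalized CPM and still lay above WT. The KO call was less firm. It was not made without WT 1 (adjusted p = 0.110), without WT 2 (0.117), without KO 2 (0.108), without both KO 2 and the library labelled KI 4 (0.111), or with the close pairs summed and the library labelled KI 4 left out (0.211, log2 fold change 0.69 ± 0.33). The 3′ end of Csf1r overlaps the end of Hmgxb3, on the opposite strand, by 873 bases in GENCODE M21. Hmgxb3 was at 69.2 ± 12.5 normalized CPM in WT and 86.7 ± 14.6 in KI, a log2 fold change of 0.33 ± 0.14 (adjusted p = 0.0842, edgeR), and in KO it was at 77.0 ± 10.2 and not called (adjusted p = 0.468). The authors counted by strand, and how much of the Csf1r count comes from the overlap was not tested.

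C1qa encodes the A chain of C1q, the recognition molecule of the classical complement pathway, which tissue macrophages make. Its WT libraries lay between 0.241 and 0.828 normalized CPM with a median of 0.568. The KO libraries lay between 0.382 and 1.79 with a median of 0.886, and the KI libraries between 0.593 and 1.27 with a median of 0.807. Most KO and KI libraries were above the WT median, but the groups overlapped. C1qa had a log2 fold change of 0.79 ± 0.35 in KO (adjusted p = 0.113) and 0.68 ± 0.35 in KI (adjusted p = 0.172, edgeR), neither past the threshold. It was called in 4 of 28 alternative fits for KO and in 2 of 28 for KI.

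Cd68, a lysosomal membrane glycoprotein of macrophages, ran from 0.319 to 1.53 normalized CPM in WT with a median of 0.887. In KO it ran from 0.589 to 1.57 with a median of 0.734, and in KI from 1.06 to 1.55 with a median of 1.20. The KI libraries sat high, all of them above the WT median, and still overlapped WT. The log2 fold change was 0.05 ± 0.31 in KO (adjusted p = 0.932) and 0.53 ± 0.30 in KI (adjusted p = 0.224, edgeR). Eif4a1, a translation initiation factor gene, ends 782 bases before Cd68 on the same strand and was at 76.5 ± 15.3 normalized CPM in WT, and whether it adds reads to Cd68 was not tested. Adgre1, which encodes the F4/80 antigen, had medians of 1.92 in WT, against 2.37 in KO and 2.58 in KI and overlapping groups. Its log2 fold change was 0.16 ± 0.19 in KO (adjusted p = 0.625) and 0.27 ± 0.19 in KI (adjusted p = 0.348, edgeR).

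Neither endothelial gene was called in KO or KI. Pecam1, the adhesion molecule CD31 of endothelial junctions, had medians of 0.795 normalized CPM in WT, against 0.582 in KO and 0.704 in KI. Its libraries ran from 0.366 to 1.04 in WT, 0.273 to 0.953 in KO and 0.639 to 1.19 in KI, where the library labelled KI 4 was the highest. The log2 fold change was -0.28 ± 0.29 in KO (adjusted p = 0.562) and 0.09 ± 0.28 in KI (adjusted p = 0.872, edgeR). Cdh5, the cadherin of endothelial junctions, had medians of 0.986 in WT, 0.728 in KO and 0.645 in KI, and its ranges of 0.521 to 1.08, 0.563 to 1.07 and 0.559 to 1.32 overlapped almost wholly. Its log2 fold change was -0.18 ± 0.27 in KO (adjusted p = 0.697) and -0.19 ± 0.27 in KI (adjusted p = 0.674, edgeR).

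KI and KO were compared directly as well. Of the 10 genes 0 were called, beside 0.0997% of all genes tested, and 0 were called past 1 log2 unit, beside 0.00475%. Among all genes, 16 were called higher and 5 lower in KI. With the library labelled KI 4 left out, 60 were called higher and 51 lower of 21257 tested, and still 0 of the 10 genes. At an unadjusted p under 0.05, edgeR gave 1 gene, Csf1r, with a log2 fold change of 0.52 ± 0.25 and an adjusted p of 0.961, and DESeq2 called 0 of the 10. For the other 9 genes the log2 differences between KI and KO ran from -0.16 for Wt1 to 0.47 for Cd68. The larger Csf1r difference in KI than in KO was therefore not shown to differ between the lines.

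Summed by cell type, the macrophage genes were higher in KI than in WT without overlap, and the Sertoli and endothelial sums overlapped between genotypes. The macrophage sum includes Csf1r, which differed most, with a mean of 1.24 normalized CPM in WT and 2.92 in KI. Cd68, Adgre1 and C1qa each overlapped between KI and WT, so the separation is not shown for the class apart from Csf1r. The 4 macrophage genes summed to 4.77 ± 0.930 normalized CPM in the WT libraries (SD, n = 6). The sum was 6.23 ± 1.25 in KO, 1.30 times the WT mean, and 7.60 ± 1.02 in KI, 1.59 times the WT mean. Without the library labelled KI 4 the KI sum was 7.31 ± 0.817, or 1.53 times WT. The KI libraries ran from 6.40 to 9.06 and lay above the WT range of 3.47 to 5.73, while the KO libraries, at 4.80 to 8.08, overlapped both. The 4 Sertoli genes summed to 11.5 ± 3.46 in WT, 11.04 ± 2.45 in KO and 10.4 ± 3.17 in KI, and the 2 endothelial genes to 1.63 ± 0.172, 1.39 ± 0.174 and 1.57 ± 0.266. All 10 genes together were at 17.9 ± 2.65, 18.7 ± 2.996 and 19.6 ± 3.41 normalized CPM, so that the KO and KI means were 1.04 and 1.10 times the WT mean and differed by less than 1 SD.

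**Figure D3:**
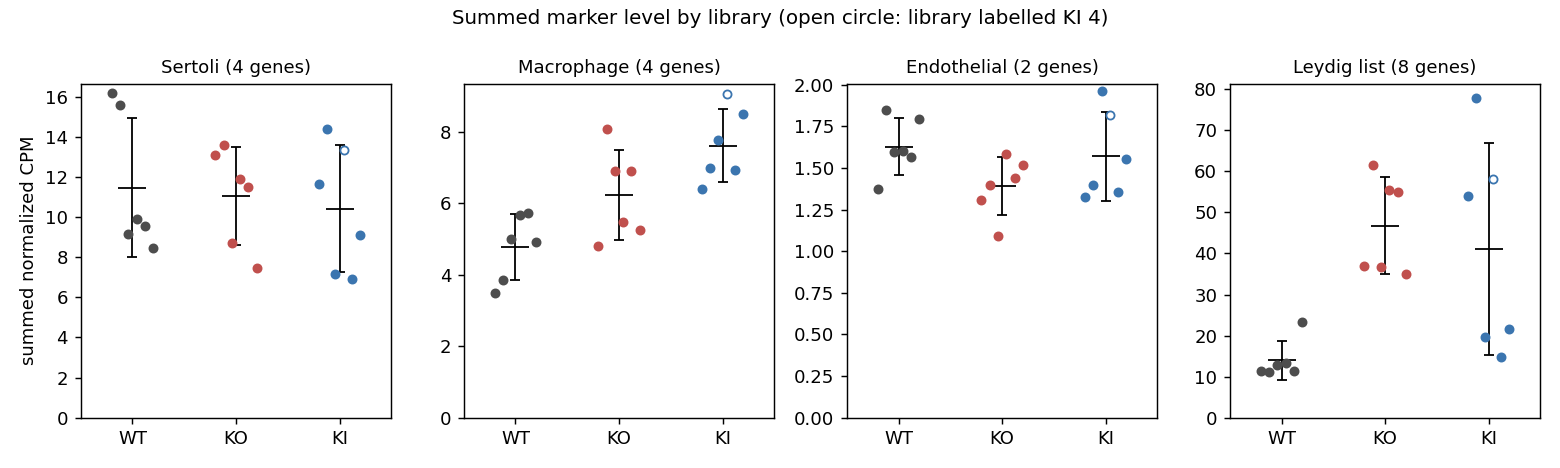
Summed normalized CPM (y axes, each starting at 0) of the Sertoli, macrophage and endothelial genes and of a list of Leydig cell genes in every library, by genotype; points are libraries, the open circle is the library labelled KI 4, and the black line and bar are the mean and SD of 6 libraries. The macrophage sum of the 6 KI libraries, 6.40 to 9.06, lies above the WT range, the Sertoli and endothelial sums overlap, and 3 KI libraries have Leydig sums within the WT range.

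Leydig cells, the steroid-making cells between the tubules, were read as a further somatic type. The 8 Leydig genes came from a list chosen with earlier results of these data known. They were called higher in KO and in KI against WT, 8 of 8 in each. Among all genes tested, 16.4% were called higher in KO and 16.1% in KI. With the library labelled KI 4 left out, 7 of the 8 passed the filter and all 7 were called higher in both. Cyp17a1, a steroid hydroxylase, went from 3.49 ± 1.77 normalized CPM in WT to 14.9 ± 5.20 in KO and 12.9 ± 9.87 in KI, with log2 fold changes of 2.09 ± 0.44 (adjusted p = 0.00125) and 1.89 ± 0.44 (adjusted p = 0.00266, edgeR). The Leydig sum was 13.9 ± 4.69 in WT, 46.7 ± 11.8 in KO and 41.0 ± 25.9 in KI, 3.35 and 2.94 times the WT mean, and 2.697 times without the library labelled KI 4. Over the 18 libraries the log2 macrophage sum had a Pearson r of 0.521 with the log2 Leydig sum and of -0.700 with that of a list of late spermatid genes. The Sertoli sum had 0.259 and 0.241 with the same lists, and -0.284 with the macrophage sum. These describe 18 libraries of 3 genotypes that share their scaling. The late spermatid list summed to 18429 ± 2168 normalized CPM in WT, against 3471 ± 941 in KO and 3085 ± 447 in KI. The part of these movements in the macrophage values was not tested.

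Further markers of the same cell types were read from wider lists. Their counts stand beside 16.4% of all genes called higher and 13.5% lower in KO, and 16.1% and 15.4% in KI. Of 20 further Sertoli genes, 17 were tested, and 5 of them fell in KO and none rose. In KI, 4 fell and 2 rose. Rhox8, a homeobox gene of Sertoli cells, was at 3.30 ± 0.931 normalized CPM in WT, against 1.76 ± 0.597 in KO and 2.23 ± 0.591 in KI. Its log2 fold changes were -0.91 ± 0.24 (adjusted p = 0.00868) and -0.57 ± 0.24 (adjusted p = 0.0857, edgeR). Inha, the alpha subunit of inhibin, fell by 0.58 in KO (adjusted p = 0.0474) and by 0.66 in KI (adjusted p = 0.0250) on the log2 scale, and its KO and KI libraries lay below WT without overlap. Cst9, a cystatin gene, fell by 1.10 in KO (adjusted p = 0.0124) and by 0.92 in KI (adjusted p = 0.0317). The median log2 fold change over the 17 genes was -0.38 in both comparisons, beside 0.03 and 0.05 over all genes. With the library totals as the scaling the split became 3 higher and 3 lower in both comparisons, and with the close pairs summed and the library labelled KI 4 left out 3 fell in KO and 0 were called in KI. With that library alone left out, 2 rose and 4 fell in KI as before, but Rhox8 was no longer called and Aard was. Tjp1, a tight junction gene also used by other cells, made up 77.0% of the summed level of this list and was not called (KI log2 fold change 0.28 ± 0.16, adjusted p = 0.209).

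Of 20 further macrophage genes, 16 were tested. In KO, 4 rose and 2 fell, and in KI 8 rose and 2 fell. The shares of all genes were 16.4% higher and 13.5% lower in KO, and 16.1% and 15.4% in KI. The median log2 fold change was 0.63 in KO and 0.84 in KI. Cd163, a scavenger receptor of resident macrophages, rose by 1.15 ± 0.31 in KO (adjusted p = 0.00890) and 1.09 ± 0.31 in KI (adjusted p = 0.0121). Ccr2, the chemokine receptor of monocytes, rose by 1.74 ± 0.41 in KO (adjusted p = 0.00319), from 3 to 12 counts per WT library to 10 to 40. Cx3cr1, the fractalkine receptor, rose by 1.26 ± 0.31 in KI (adjusted p = 0.00461), and in KO its log2 difference was 0.62 ± 0.32 (adjusted p = 0.178, edgeR). Without the library labelled KI 4, 5 rose in KI in place of 8, and without KO 2, 2 rose in KO in place of 4. With the close pairs summed and the library labelled KI 4 left out, 3 rose and 1 fell in KO and 2 rose and 1 fell in KI. With library totals as the scaling, 8 rose in KO and 13 in KI, and the same 2 genes fell.

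Aif1 and C1qb fell in both lines, unlike the other called genes of the list. Aif1, which encodes the calcium-binding protein IBA1 and was at 161 ± 63.1 normalized CPM in WT, against 87.2 ± 45.5 in KO and 70.5 ± 14.9 in KI, made up 78.7% of the summed level of the list. Because of it, the list's sum in KO was 0.632 times and in KI 0.568 times the WT mean although its median gene was higher. Per kilobase its level was 69.4 ± 38.5 normalized CPM over the 18 libraries, against 0.421 ± 0.177 for Csf1r.

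The 3 chains of C1q are encoded side by side on chromosome 4, and their counts went in different directions. C1qb, the B chain, lay between 2.58 and 3.13 normalized CPM in WT, 0.545 and 1.60 in KO, and 0.982 and 2.16 in KI. The KO and KI libraries lay below WT without overlap. Its log2 fold change was -1.20 ± 0.22 in KO (adjusted p = 0.000274) and -0.96 ± 0.21 in KI (adjusted p = 0.00173, edgeR). C1qc, the C chain, named here after its values were seen, lay between 0.161 and 0.828 in WT, 0.545 and 1.83 in KO, and 0.571 and 1.69 in KI, and rose by 1.03 ± 0.36 in KO (adjusted p = 0.0395) and 1.11 ± 0.36 in KI (adjusted p = 0.0250). C1qa sat with C1qc in sign but did not pass the test. The genes do not overlap, with 3616 bases between C1qb and C1qc and 2851 between C1qc and C1qa in GENCODE M21.

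Promoters are shown for the member and for the pair of C1q chains that moved apart, because RefSeq promoter sequences (GRCm38.p6) were at hand for 1 of the 10 genes, Cd68, and for C1qb and C1qc. Each run gives the 250 bases before the annotated start, 5′ to 3′ on the gene's strand. Capitals mark GAGGAA, the core of sites bound by the myeloid factor PU.1, or its reverse complement TTCCTC.
Cd68, chr11:69666171-69666420, - strand: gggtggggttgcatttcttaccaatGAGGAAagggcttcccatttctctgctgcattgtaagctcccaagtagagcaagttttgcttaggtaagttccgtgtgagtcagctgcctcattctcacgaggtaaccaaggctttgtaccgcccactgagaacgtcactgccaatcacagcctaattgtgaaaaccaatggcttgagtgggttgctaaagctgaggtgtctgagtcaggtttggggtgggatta
C1qb, chr4:136886201-136886450, - strand: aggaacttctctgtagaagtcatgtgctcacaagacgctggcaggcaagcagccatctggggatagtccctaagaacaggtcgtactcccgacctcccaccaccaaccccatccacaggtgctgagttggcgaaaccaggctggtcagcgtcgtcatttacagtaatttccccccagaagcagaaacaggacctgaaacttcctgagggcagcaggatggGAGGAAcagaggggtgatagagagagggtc
C1qc, chr4:136892915-136893164, - strand: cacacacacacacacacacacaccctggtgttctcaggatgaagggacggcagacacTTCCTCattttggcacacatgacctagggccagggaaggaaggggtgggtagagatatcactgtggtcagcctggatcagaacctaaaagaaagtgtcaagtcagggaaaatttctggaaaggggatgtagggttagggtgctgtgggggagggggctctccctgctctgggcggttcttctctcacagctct
Each of the 3 held 1 match, starting 225 bases before the start in Cd68, 30 in C1qb and 193 in C1qc, the last on the opposite strand. On either strand the motif was found in 23.3% of the 32851 promoter windows of the same length. A match is a description of the sequence and not a site of binding.

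Of 16 further endothelial genes, 10 were tested, and 4 rose and 1 fell in KO while 3 rose and 1 fell in KI. The shares of all genes were 16.4% higher and 13.5% lower in KO, and 16.1% and 15.4% in KI. Tek, the angiopoietin receptor, rose from 0.768 ± 0.342 normalized CPM in WT to 2.38 ± 0.285 in KO and 1.94 ± 0.593 in KI. Its log2 fold changes were 1.62 ± 0.29 (adjusted p = 0.000223) and 1.33 ± 0.29 (adjusted p = 0.00142, edgeR), and the KO libraries lay above WT without overlap. Vwf, which encodes von Willebrand factor, rose by 0.85 ± 0.15 in KO (adjusted p = 0.000255) and 0.82 ± 0.15 in KI (adjusted p = 0.000324). Flt1, a receptor for VEGF, rose by 0.76 ± 0.18 in KO (adjusted p = 0.00363) and 0.57 ± 0.18 in KI (adjusted p = 0.0252). Egfl7, a secreted endothelial protein, fell by 1.09 in KO (adjusted p = 0.00777) and by 1.40 in KI (adjusted p = 0.00110). Without the library labelled KI 4 the same genes were called. With the close pairs summed as well, Tie1 was lost in KO and Flt1 in KI, and with library totals as the scaling 4 rose in both lines and 1 fell. Pecam1 and Cdh5, named above, and Kdr, the main VEGF receptor of endothelium, were not called beside them. Kdr was singled out after its values were seen and spread widely, from 1 to 56 counts in WT libraries and from 4 to 38 in KI.

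**Figure D4:**
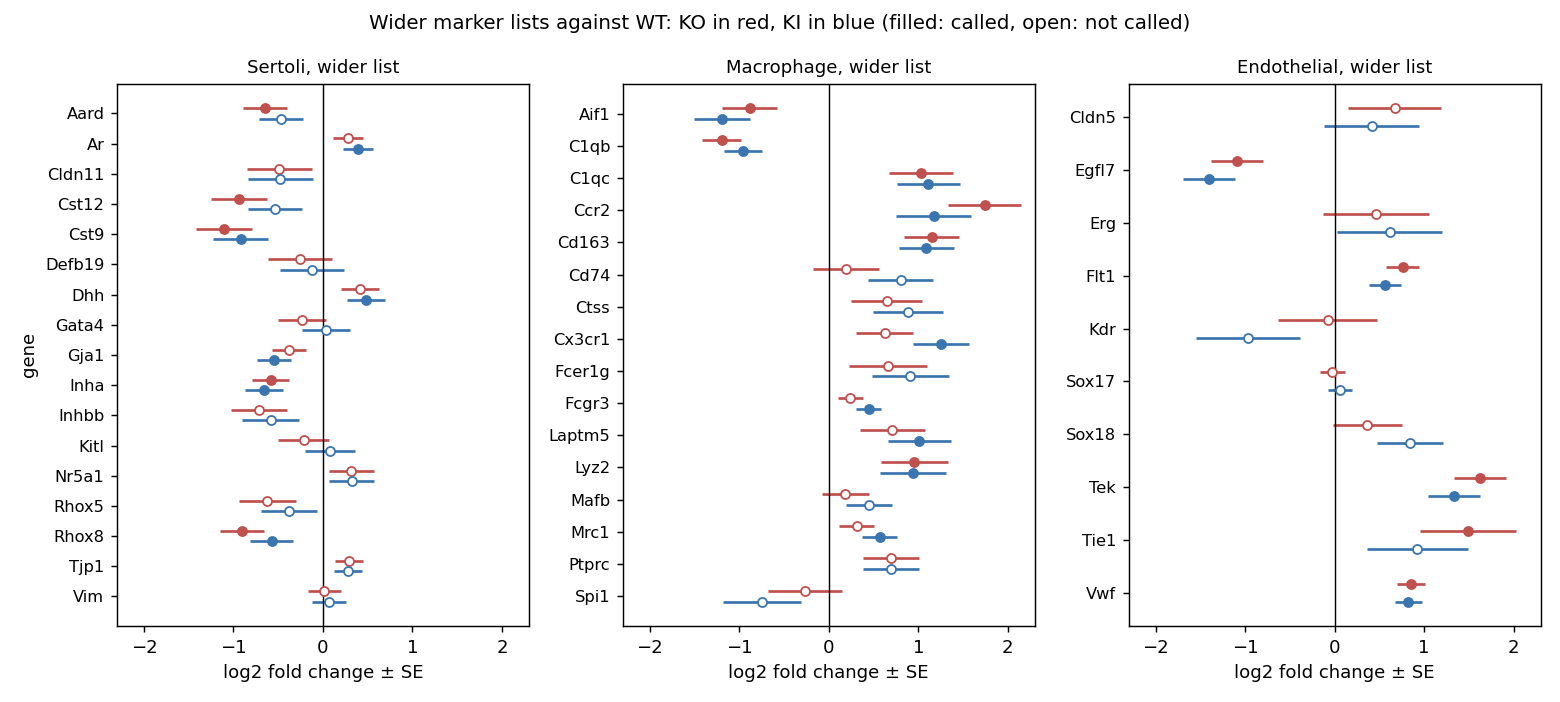
Log2 fold change (x axes) with its SE for the tested genes of the wider Sertoli, macrophage and endothelial lists (y axes), KO against WT in red and KI against WT in blue, from edgeR; filled points were called at an adjusted p under 0.1. Most macrophage genes lie above 0 apart from Aif1, C1qb and Spi1, and the Sertoli and endothelial lists hold called genes on both sides of 0.

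Over the 18 libraries, the genes on no list whose log2 level was most like the log2 sum of each class were found by Pearson r. For the macrophage sum they were Cdh3 and Fgl2 (0.898 each) and Impa2 (0.873). For the Sertoli sum, which Clu dominates, they were 2310026I22Rik (0.866), Huwe1 (0.853) and Gnas (0.841), and for the endothelial sum Kcnk12 (0.729), Ppp1r3e (0.719) and Adcy2 (0.711). Each was picked as the highest among the correlations of the genes tested, over points that share libraries and scaling.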

How the data were processed

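RNA-seq counts of RS were used from 6 libraries of each genotype (WT, KO and KI of GRTH), grouped by the labels. The authors deposited raw counts per gene, made, according to the study's methods and the file header, by trimming with cutadapt 3.4, alignment to GRCm38 with STAR 2.7.8a and counting of paired reads on the reverse strand with featureCounts (Subread 2.0.1) on GENCODE M18. The study's methods for these libraries do not mention molecular identifiers. The SDs given are between libraries, and the SEs come from the edgeR fit, which takes in the spread between libraries. Symbols came from a GENCODE M21 table, which named 54079 of 54232 identifiers. Counts were filtered by edgeR 4.0.16 (filterByExpr, 21058 genes left), scaled by TMM and fitted in 1 model of genotype over 18 libraries in R 4.3.3 (limma 3.58.1). Tests were quasi-likelihood tests, two-sided, of any change and of a change past 1 log2 unit (glmTreat), with Benjamini-Hochberg adjustment over all genes and a threshold of 0.1. Normalized CPM is the count scaled for the TMM-adjusted library size, and per-kilobase levels divide it by the summed exon length. The script was tested on simulated counts. Alternatives were DESeq2 1.42.0, other scalings and filters, a replicate block and leaving out libraries.

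The members and lists were chosen with earlier results of these data known. Beside the members, the genes named were, of each other list, the 3 with the highest level per length, up to 3 called genes with the smallest adjusted p in each comparison for the wider lists, the 3 most like each class sum, and genes that overlap a member or lie within 2 kb of it. Not all of these are printed. Figures were drawn with matplotlib 3.10.9.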

Additional observations from a re-analysis of the deposited data

Results flagged for a closer look

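In 2 of 39 sets of 6 libraries, 1 library stood apart from the others by Dixon's criterion, and chance gives about 1 in 20. Sox9 in KO was at 2.27 normalized CPM in KO 2, against 1.21 in the nearest library, a gap of 0.676 of the range. Pecam1 in KI was at 1.19 normalized CPM in the library labelled KI 4, against 0.838 in the nearest, a gap of 0.635 of the range. These are the libraries that lay closest to each other over all genes. Without the library labelled KI 4, Pecam1 in KI was at 0.708 ± 0.0788 normalized CPM (SD, n = 5).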

How the results depend on the processing

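Across 29 alternatives, the count of the 10 genes called for any change was 0 to 3 in KO against WT (2 as reported), 2 to 5 in KI against WT (2 as reported) and 0 in KI against KO. In KO against WT it was 1 without both KO 2 and the library labelled KI 4, and 0 with the close pairs summed and without that library, which leaves 3 WT, 5 KO and 3 KI libraries. Without 1 library it was 1 to 3 in KO against WT, the calls of 1 being those without WT 1, WT 2 or KO 2, and 2 to 3 in KI against WT. In KI against WT it was 5 with library totals in place of TMM, where Adgre1, C1qa and Cd68 joined Csf1r and Wt1. That scaling moved the median of all genes by 0.12 in KO and 0.15 in KI against WT (log2) and the share of calls that were higher from 55.0% to 70.8% and from 51.1% to 69.4%. No gene of the 10 was called past 1 log2 unit under 30 alternatives, the interval form of glmTreat, added after seeing the data, included. The replicate block left 2, 2 and 0 genes called. The numbers of the labels did not pair the libraries, with correlations of same-numbered deviations from -0.427 to 0.469 and 7 of 18 over 0.1. No call of a member reversed its direction. The ratio of the summed level to WT was 1.02 to 1.13 in KO and 1.10 to 1.21 in KI over the scalings. The depth gave 2 to 15 counts per library for Amh and 5 to 41 for C1qa. Pecam1 had 5 to 28, Cdh5 11 to 29 and Cd68 6 to 38, so moderate changes of all these genes could be missed.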

Other observations

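Peritubular myoid cells, the contractile cells of the tubule wall, were read from a list of 10 genes, of which 9 were tested. In KO 3 rose and 2 fell, and in KI 4 rose and 2 fell. The shares of all genes were 16.4% higher and 13.5% lower in KO, and 16.1% and 15.4% in KI. Cnn1, a smooth muscle calponin, rose by 2.43 ± 0.41 in KO (adjusted p = 0.000162) and 1.76 ± 0.43 in KI (adjusted p = 0.00424, edgeR, log2 scale), while Myh11, the smooth muscle myosin heavy chain, fell by 1.54 in KO (adjusted p = 0.000253) and by 1.73 in KI (adjusted p = 7.2e-05). Cnn1 and Myh11 were named after their values were seen. The mean of Cnn1 was 0.136 normalized CPM in WT, near the floor of 3 counts, against 0.770 in KO and 0.486 in KI. Myh11 was at a mean of 2.63 in WT, against 0.902 in KO and 0.795 in KI. Actg2 made up 89.9% of the summed level of that list and fell by 1.35 in KO (adjusted p = 0.000174) and by 1.59 in KI (adjusted p = 2.4e-05). Per kilobase Actg2 was at 92.4 ± 53.6 normalized CPM over the 18 libraries, against 0.980 ± 0.301 for Tagln and 0.822 ± 0.312 for Acta2. Which cells the Actg2 reads came from was not tested. Acta2 and Pdgfra also rose in KO, and Pdgfra, Col1a2 and Dcn in KI. These KI calls were also made without the library labelled KI 4. With the close pairs summed as well, Pdgfra was not called in KO and Col1a2 was not called in KI.

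Of 9 blood cell genes, 2 passed the filter, and the list summed to 1.42 to 3.88 normalized CPM. Alas2, the erythroid enzyme of heme synthesis, fell by 1.64 in KO (adjusted p = 0.000122) and by 1.32 in KI (adjusted p = 0.000754, log2 scale), and its KO and KI libraries lay below WT without overlap. Hbb-bs, a beta-globin gene, rose by 0.75 ± 0.31 in KI (adjusted p = 0.0813, edgeR), a call not made without the library labelled KI 4. Of 8 spermatogonial genes, 3 rose in KO and 2 in KI. Beside this and the germ cell lists below, 16.4% of all genes were called higher and 13.5% lower in KO. In KI these shares were 16.1% and 15.4%. Stra8 rose by 1.23 ± 0.27 in KO (adjusted p = 0.00208) and 0.71 ± 0.27 in KI (adjusted p = 0.0621). Without the library labelled KI 4, 1 of the 8 rose in KI, Id4, and with the close pairs summed as well 1 rose in KO and 0 in KI. With library totals as the scaling 6 rose in KO and 3 in KI. Of 8 spermatocyte genes, 3 rose and 2 fell in KO and 2 rose and 2 fell in KI, or 1 and 2 in KI without the library labelled KI 4, and 4 rose and 0 fell in KO with library totals. Of 10 round spermatid genes, 2 fell in KO and 5 in KI, or 4 in KI without that library and 3 with library totals. The 8 late spermatid genes fell in both lines, also without that library and with library totals.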
